A study of Mus musculus with 19 samples.

Results

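A set of 10 genes that mark the early response of cells to stimulation or stress was followed in single cells of the fetal mouse thymus primordium. They were chosen by name: the AP-1 genes Fos, Fosb, Jun, Junb and Jund, the early response genes Egr1, Ier2 and Atf3, and the heat shock genes Hspa1a and Hspa1b. All 10 were among the 54179 genes of the count table, of which 21964 were protein-coding. The cells were wild-type EPCAM+PLET1+ cells from the thymus region at embryonic day E10.5 or E12.5, sorted singly into 96-well plates that carry a barcode for each well and sequenced after whole transcriptome amplification. The comparison used 4 plates at E10.5 (lettered a to d) and 4 at E12.5 (a, c, d and e), with 356 and 355 cells kept. The table of the series adds 2 sequencing runs of each plate. For E10.5 plate d and E12.5 plate e, which had 3 runs, it holds the first run and the second of the repeats, and the other repeat was not used here. A ninth plate, E12.5 plate b, was sequenced in 1 run and is given apart. The labels name no embryos or litters, so the error given is the spread between plates, which may be technical. No plate held cells of both stages, so stage cannot be told apart from the dissociation, sort and library preparation of its plates.

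Immediate early genes are switched on by signals that act on transcription factors already in the cell, so that no new protein is needed before their transcripts appear, and those transcripts are short-lived. Fos and Jun family proteins pair to form the transcription factor AP-1, which drives a later wave of genes in growth, wounding and stress. Removing cells from a tissue with enzymes is itself known to start this response, and heating or protein damage starts a partly separate response through heat shock factor and the Hsp70 chaperones Hspa1a and Hspa1b.

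Promoter sequences, 250 bases before to 50 bases after the RefSeq start (GRCm38.p6), are shown for 3 AP-1 genes that were higher at E12.5 and for a heat shock gene that was not called, to show what their start regions hold. Fos lies at chr12:85473640-85473939 on the plus strand, Jun at chr4:95052173-95052472 on the minus strand, Junb at chr8:84978699-84978998 on the minus strand and Hspa1a at chr17:34972107-34972406 on the minus strand. Each is written 5′ to 3′, and capitals mark TGACG, the core of the cAMP response element, or GAANNTTC, a pair of heat shock factor units.
Fos: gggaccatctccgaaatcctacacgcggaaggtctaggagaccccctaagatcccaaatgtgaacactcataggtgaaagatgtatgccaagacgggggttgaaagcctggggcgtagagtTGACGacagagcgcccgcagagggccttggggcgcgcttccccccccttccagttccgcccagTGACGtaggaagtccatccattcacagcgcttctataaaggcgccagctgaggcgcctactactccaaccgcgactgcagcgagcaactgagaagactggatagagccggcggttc
Jun: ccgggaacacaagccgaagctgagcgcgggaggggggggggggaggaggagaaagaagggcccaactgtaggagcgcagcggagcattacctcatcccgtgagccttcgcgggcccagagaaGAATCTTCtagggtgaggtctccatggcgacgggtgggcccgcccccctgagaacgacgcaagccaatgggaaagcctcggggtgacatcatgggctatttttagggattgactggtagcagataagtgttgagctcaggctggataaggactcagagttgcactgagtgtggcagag
Junb: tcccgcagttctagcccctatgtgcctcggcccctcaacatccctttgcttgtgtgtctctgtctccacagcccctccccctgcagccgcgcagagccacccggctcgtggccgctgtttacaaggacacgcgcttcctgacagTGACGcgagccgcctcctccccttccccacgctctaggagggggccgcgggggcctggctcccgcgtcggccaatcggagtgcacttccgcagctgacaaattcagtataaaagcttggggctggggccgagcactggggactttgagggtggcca
Hspa1a: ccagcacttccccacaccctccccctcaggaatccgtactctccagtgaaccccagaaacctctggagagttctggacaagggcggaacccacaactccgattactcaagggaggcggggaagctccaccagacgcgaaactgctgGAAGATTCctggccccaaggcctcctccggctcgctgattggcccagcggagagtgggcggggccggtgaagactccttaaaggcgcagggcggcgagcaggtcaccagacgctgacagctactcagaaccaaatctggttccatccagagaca

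Sequences were searched for 8 of the 10 genes, all but Egr1 and Ier2. Egr1 lies on chromosome 18, whose promoters were left out when sequences of the 10 genes were taken. The counts below do not cover Egr1 or Ier2. On either strand, TGACG was present in 4 of the 8 (Fos at 2 places, Fosb, Junb and Atf3), beside 20.8% of 32851 RefSeq promoters. GAANNTTC was present in 3 (Jun, Hspa1a and Hspa1b), beside 7.86% of promoters. The full element TGACGTCA, the AP-1 letters TGANTCA, the other arrangement TTCNNGAA and the CArG box, searched in the same way, were in none of the 8 windows. They occur in 1.79%, 7.81%, 8.52% and 1.63% of promoters. The Hspa1a and Hspa1b windows were identical at 296 of 300 bases. These matches describe letters and are not evidence of binding. Near matches and bases outside the windows were not searched, so an absence here does not show that a gene lacks such a site.

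The cells held a median of 130836 to 209514 protein-coding reads on the 8 plates. Plate a at E10.5 stood apart, with a median of 1480.5 features per cell against 1817.5 to 3260 on the others. The unit CPM sets a gene's reads, summed over the kept cells of a plate, against all protein-coding reads of those cells at 1 fixed total. Summed cTEC markers (genes of cortical thymic epithelium) were 169 to 218 CPM at E10.5 and 5910 to 6553 CPM at E12.5, with all 6 read at both stages. Summed mesenchyme markers were 63.8 to 120.2 CPM and 5.49 to 24.2 CPM, with Col3a1 at 0 at E10.5 and Prrx1 at 0 at E12.5. Endothelial markers summed to at most 25.0 CPM at E10.5 and 0.137 CPM at E12.5, with Cdh5 and Tie1 at 0 at both stages. Parathyroid markers summed to 24.9 to 94.3 CPM at E10.5 and 2749 to 8589 CPM at E12.5. Markers of mTEC progenitors (medullary thymic epithelium) summed to 246 to 331 and 483 to 966 CPM, and those of pharyngeal endoderm to 1770 to 2428 and 706 to 1274 CPM. Haematopoietic markers reached 2.44 CPM at E10.5 and 46.1 CPM at E12.5. The part of these changes in cell type in the results over all cells was not tested.

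The immediate early genes Fos, Jun, Junb, Egr1 and Ier2 were higher at E12.5 over all cells, by 1.71 to 3.57 on the log2 scale. Of the 10 genes, 8 were tested, 5 were called higher and none lower, where 6.24% of 11499 genes tested were called, 3.80% higher and 2.44% lower. The test was edgeR's quasi-likelihood test on reads summed per plate, with Benjamini-Hochberg adjustment over all genes tested. DESeq2 called 7 of the 8, where it called 1269 of 11499 genes. The 8 tested genes had a median log2 fold change of 2.64, against 0.00 for all genes tested. Jund and Hspa1b did not pass the filter on low counts.

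Fos, which pairs with Jun proteins in AP-1, was read at 409, 110.2, 60.8 and 45.3 CPM at E10.5, in the order of the plate letters. At E12.5 it was read at 929, 787, 635 and 812 CPM on plates a, c, d and e. The stages did not overlap, and plate a was the highest of the E10.5 plates. Its log2 fold change was 2.40 ± 0.54 (SE; adjusted p = 0.0212, edgeR). The call was lost without E10.5 plate b (adjusted p = 0.0742), E10.5 plate c (0.0588) or E12.5 plate e (0.0513), when all genes of the table were tested (0.0501), and on the plates whose letters occur at both stages, with the letter as a block (0.0576) or without it (0.141). Without E10.5 plate a the difference was 3.32 (adjusted p = 0.00015). Without that plate the same 5 genes were called, and Atf3 as well.

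Fosb, a relative of Fos, was read at 49.6, 63.7, 28.8 and 0.766 CPM at E10.5. It was read at 269, 262, 524 and 140.2 CPM at E12.5. The stages did not overlap, but on each E10.5 plate 1 cell held 43.0% to 81.8% of its reads. The log2 fold change of 3.06 ± 0.85 was not called (adjusted p = 0.0587, edgeR). It passed in 4 of 17 alternative fits and was 2.60 to 3.58 without 1 plate.

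Jun, a partner of Fos in AP-1, stood at 275, 139.5, 134 and 176 CPM at E10.5 and at 579, 592, 620.3 and 756 CPM at E12.5. The lowest E12.5 plate was above the highest E10.5 plate. The difference was 1.79 ± 0.26 on the log2 scale (adjusted p = 0.00205, edgeR).

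Junb, a Jun relative that can restrain Jun, was 22.9, 11.4, 18.5 and 23.0 CPM at E10.5 and 279.9, 268, 190.3 and 221 CPM at E12.5. The E10.5 plates lay close together, far below every E12.5 plate. Its log2 fold change was 3.57 ± 0.30 (adjusted p = 4.43e-05, edgeR), the largest of the 8 tested genes. The gene overlaps Prdx2 on the other strand, and whether the counting used strand is not given. Jund, the Jun relative that many resting cells express, was almost unread, with 1 to 2 reads on each E10.5 plate and 2 to 6 on each E12.5 plate. It overlaps Gm11175 on the other strand. Whether this overlap lowered the Jund count was not tested, so the few reads do not show that the gene is off.

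Egr1, a zinc finger factor induced through growth factor signalling, was 125.1, 51.1, 63.5 and 29.5 CPM at E10.5. At E12.5 it was 537, 493, 550.1 and 407 CPM. The stages did not overlap, and the log2 fold change was 2.89 ± 0.33 (adjusted p = 0.000357, edgeR).

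Ier2, a small early response protein of the nucleus, was 345, 366, 282 and 315 CPM at E10.5 and 1269.9, 1068, 935 and 1236 CPM at E12.5. The 4 E10.5 plates were even in level. The difference was 1.71 ± 0.22 on the log2 scale (adjusted p = 0.000698, edgeR).

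Atf3, a stress-induced factor that can bind with Jun proteins, was 7.08, 2.94, 1.54 and 1.11 CPM at E10.5 and 10.7, 7.95, 29.8 and 49.9 CPM at E12.5. The stages did not overlap, although plates a at E10.5 and c at E12.5 were near each other. The log2 fold change of 3.08 ± 0.82 missed the threshold (adjusted p = 0.0503, edgeR). It passed in 8 of 17 alternative fits and was 2.37 to 3.68 without 1 plate. In all, 7 of the 10 genes had every E12.5 plate above every E10.5 plate in CPM, where 8.59% of genes tested did.

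Hspa1a, an inducible Hsp70 chaperone, was 3.50, 0.603, 10.4 and 5.78 CPM at E10.5 and 36.2, 3.08, 14.8 and 12.4 CPM at E12.5. The stages overlapped, and the log2 fold change was 1.59 ± 0.91 (adjusted p = 0.418, edgeR). On E12.5 plate c, 1 cell held 91.1% of its reads.

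Hspa1b, its near copy, had 1, 11, 1 and 26 reads on the E10.5 plates and 0, 0, 2 and 111 on the E12.5 plates. A count of 0 allows up to 0.183 CPM on plate a and 0.205 CPM on plate c, counting error only. Of the windows of 50 bases in the main Hspa1a transcript, 58.8% also occur in that of Hspa1b, and none within the last 500 bases. Reads from the shared part match both genes, and how this changed the 2 counts was not tested. The genes lie on chromosome 17 at 34969359 to 34972156 (Hspa1a) and 34956429 to 34959238 (Hspa1b) in GRCm38.p6.

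**Figure D1:**
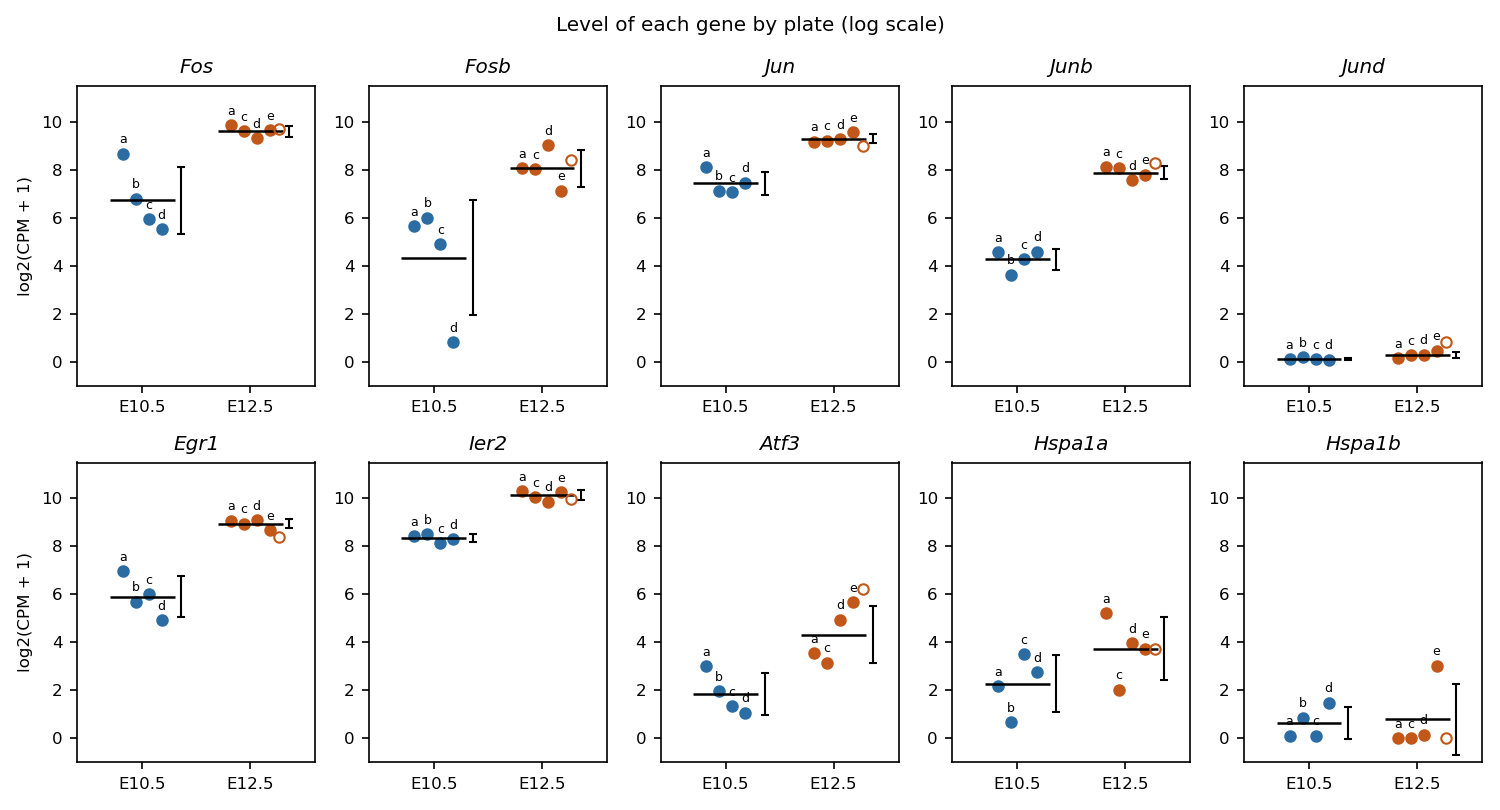
Level of each gene on each plate, as log2(CPM + 1), by stage. Filled points are the plates compared, with their letters, the open circle is E12.5 plate b, and lines and bars give the mean and SD of 4 plates. Stages separate for Fos, Fosb, Jun, Junb, Egr1, Ier2 and Atf3 and overlap for Hspa1a and Hspa1b.

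The plot of level by plate shows the Ier2 plates close together within each stage and the Fosb plates far apart at E10.5, where plate d was at 0.766 CPM.

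To compare shares of cells at an equal number of reads, each cell was thinned to 40000 protein-coding reads. Molecules per cell were not matched, and their median by plate was 2598 (E10.5 plate a) to 10841 (E12.5 plate e). A Fos read was found in 29.8% ± 1.48 of E10.5 cells and 74.8% ± 8.87 of E12.5 cells (SD, n = 4 plates). Egr1 went from 22.9% ± 5.95 to 80.9% ± 9.38 and Junb from 19.6% ± 5.03 to 70.7% ± 10.4. For these 3 genes no E10.5 plate reached any E12.5 plate. Jun was read in 50.9% ± 10.3 and 81.5% ± 6.69 of cells, and Fosb in 6.5% ± 3.8 and 36.0% ± 13.9. Of the 8 tested genes, 6 had every E12.5 share above every E10.5 share (Fos, Fosb, Jun, Junb, Egr1 and Atf3), where 6.08% of genes tested did. Ier2 was the exception among the called genes, with 64.8% ± 19.0 and 80.7% ± 5.87 of cells and overlapping plates. Its share on E10.5 plate a was 36.4% (exact 95% interval 26.4% to 47.3%), while the other E10.5 plates were at 72.9% to 75.8%. Atf3 was read in 1.99% ± 1.15 and 12.2% ± 9.47 of cells, Hspa1a in 5.92% ± 4.25 and 9.04% ± 6.43, and Hspa1b in 1.38% ± 1.04 and 0.843% ± 1.69. Without thinning, the Fos shares were 39.7% and 81.7% and the Egr1 shares 33.2% and 86.0%.

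**Figure D2:**
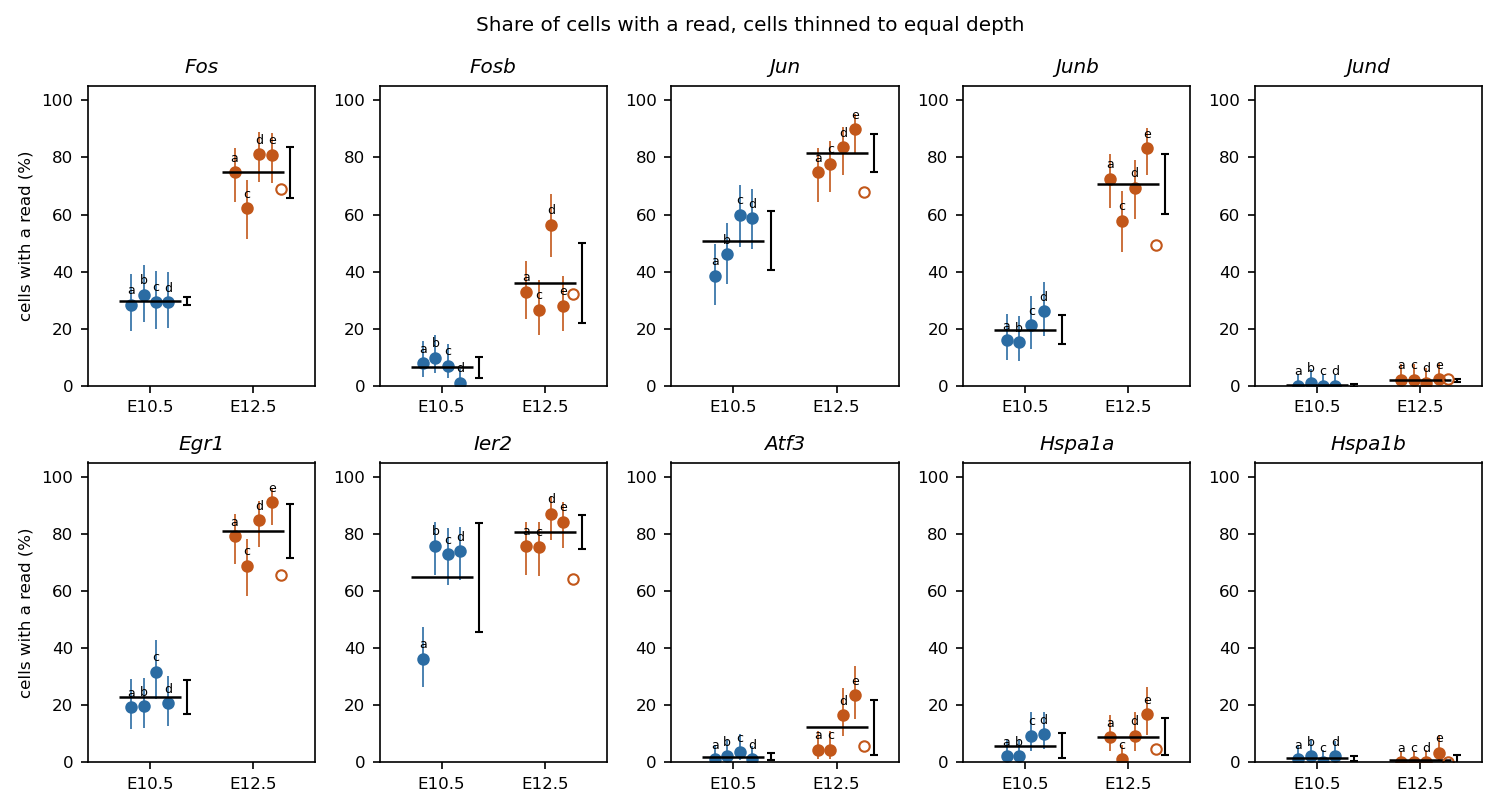
Percent of cells with at least 1 read after thinning to 40000 reads, by gene, stage and plate, with exact 95% binomial intervals. The open circle is E12.5 plate b, and lines and bars give mean and SD of 4 plates. Fos, Junb and Egr1 shares do not overlap between stages, while Ier2 shares do.

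Most E10.5 cells carried few of the genes at once and most E12.5 cells carried several. Of the 8 immediate early genes, an E10.5 cell held a mean of 1.48, 2.02, 2.26 and 2.11 by plate. An E12.5 cell held 4.16, 3.76, 4.80 and 4.83. The stages did not overlap. Cells with 5 or more made up 5.43% to 9.41% of E10.5 plates and 41.1% to 75.3% of E12.5 plates. Cells with none made up 6.52% to 38.6% of E10.5 plates, highest on plate a, and at most 4.71% of E12.5 plates. Together the 8 genes took 0.0842% ± 0.0262 of thinned reads at E10.5 and 0.362% ± 0.0344 at E12.5 (SD, n = 4 plates).

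**Figure D3:**
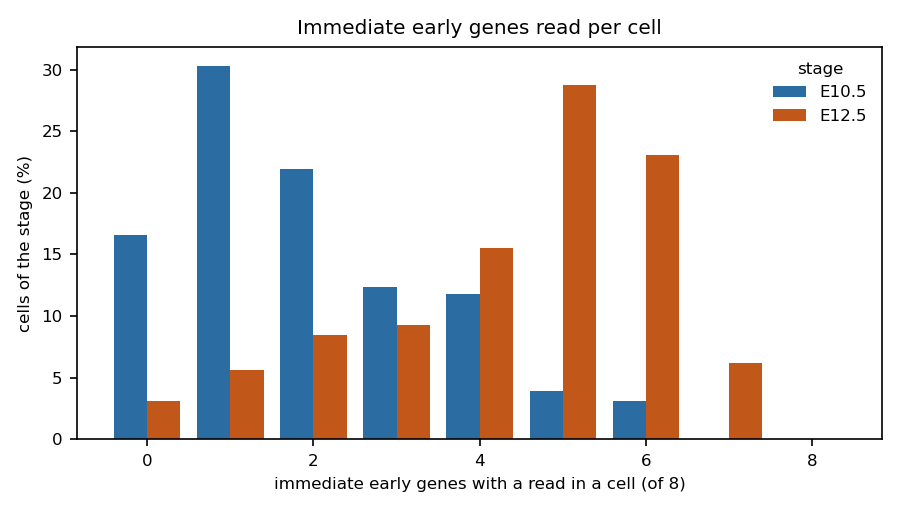
Percent of cells by the number of the 8 immediate early genes read after thinning, at E10.5 and E12.5. Bars start at 0. E10.5 cells peak at 1 gene (108 of 356 cells) and E12.5 cells at 5 genes (102 of 355 cells).

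At E10.5 the reads were concentrated in few cells. The top 10% of cells held 38.0% to 57.2% of the summed immediate early reads on E10.5 plates and 25.0% to 32.6% on E12.5 plates. For Fos alone, 1 cell held 10.46% to 21.3% of the reads on each E10.5 plate and 5.80% to 7.16% on each E12.5 plate. The 25 E10.5 cells with 5 or more genes came from all 4 plates. Of these, 21 were pharyngeal endoderm-like (7.69% of 273 such cells) and 4 neural-like (4.82% of 83).

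The 6 genes Fos, Fosb, Jun, Junb, Egr1 and Ier2 were read together within cells. Over their 15 pairs, Spearman's rho within plates (85 to 92 cells each, sharing a library) averaged 0.173 to 0.465, with a median of 0.340. It was above 0 on all 8 plates for 14 pairs, the exception being Fosb and Junb (-0.06 to 0.35). Egr1 and Ier2 had the highest mean, 0.465 (0.340 to 0.673 over plates), followed by Fos and Jun at 0.436. The median over pairs was 0.296 at E10.5 and 0.439 at E12.5. Among E10.5 cells, Egr1 was read in 45.3% of those with a Fos read and 13.2% of those without. Among E12.5 cells these shares were 90.6% and 52.2%. The pairs of these 6 with Atf3 were lower, at 0.103 to 0.161, as were those with Jund (-0.086 to 0.106, on 5 plates) and Hspa1a (0.043 to 0.131). Hspa1b, with reads in few cells of 4 plates, gave 0.0015 to 0.258. These genes were read in few cells, so tied values limit their rho. Hspa1a was read in 11.3% of E10.5 cells with a Fos read and 3.6% of those without. At E12.5 these shares were 10.9% and 3.33%. For Atf3 they were 4.72% and 0.8% at E10.5, and 14.7% and 4.44% at E12.5. For Hspa1b they were 1.89% and 1.2% at E10.5, and 0.755% and 1.11% at E12.5. The heat shock sum had a rho of 0.0102 to 0.241 with the immediate early sum, above 0 on all 8 plates but weak. Cells of a plate share its depth profile, and the values pool all classes of a plate. The part of class differences in them was not tested, and these values are descriptions.

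**Figure D4:**
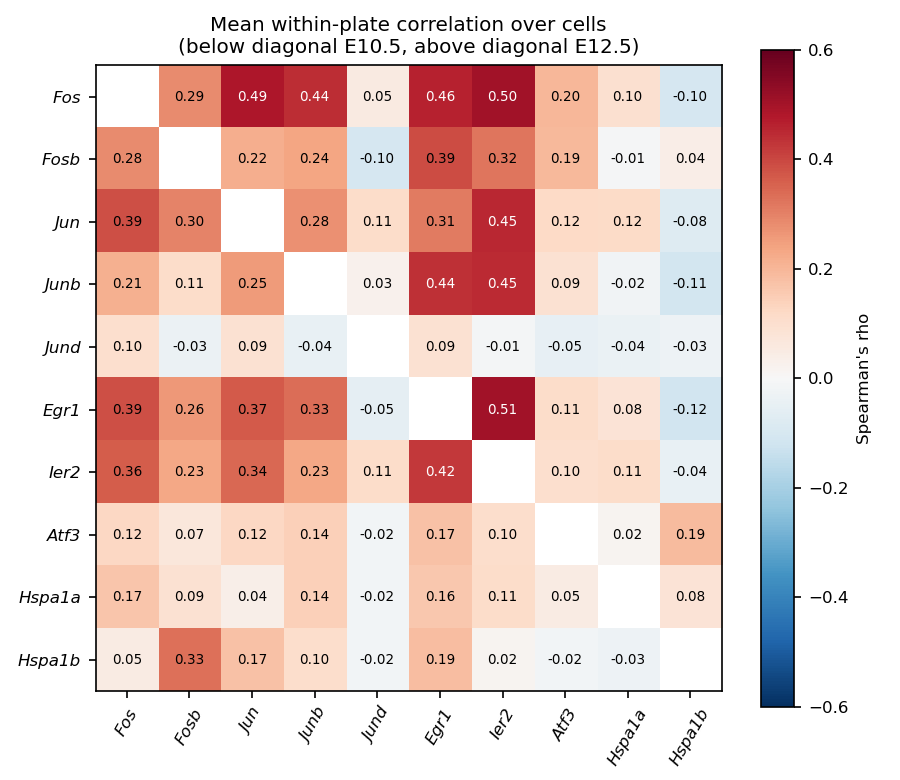
Mean within-plate Spearman correlation between genes in thinned cells, E10.5 below the diagonal and E12.5 above, each over 4 plates. The block of Fos, Fosb, Jun, Junb, Egr1 and Ier2 is positive, with a median of 0.296 below and 0.439 above the diagonal.

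No measure of cell quality followed the immediate early sum in 1 direction on every plate. The rho over plates was -0.190 to 0.246 with reads, -0.178 to 0.281 with features detected and -0.118 to 0.2003 with the mitochondrial percent. With the plate row it was -0.1995 to 0.0557 and with the column -0.0854 to 0.0874. Other genes most like the sum, out of 5975 read in at least 10% of cells, were Btg2 (mean rho 0.490), Nr4a1 (0.403, on 7 plates), Cyr61 (0.345), Dusp1 (0.325), Zfp36 (0.319), Atf4 (0.283), Id1 (0.231), Klf6 (0.222), Cxcl12 (0.210) and Dnajb1 (0.196). The median of all of them was 0.0025. For the heat shock sum the nearest were Cyr61 (0.188), Dusp1 (0.166), Wwc2 (0.165), Ddx28 (0.152) and Kbtbd2 (0.147).

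The stage difference was also present in the epithelial classes alone, where E12.5 thymic epithelial-like cells were compared with E10.5 pharyngeal endoderm-like cells. The same 5 genes were called higher of 8 tested, where 5.54% of 11013 genes were called, 3.41% higher and 2.12% lower. Fos differed by 2.27 ± 0.53 on the log2 scale (adjusted p = 0.0275, edgeR). Its call was lost in 10 of 16 alternatives, among them 7 of the 8 fits that left out 1 plate (adjusted p = 0.0512 to 0.0880), the exception being E10.5 plate a (difference 3.17, adjusted p = 0.00027). The calls of the other 4 genes were kept in all 16. Jun differed by 1.97 ± 0.25 and Junb by 3.92 ± 0.28. Egr1 differed by 3.07 ± 0.37 and Ier2 by 1.97 ± 0.21. Fosb (3.06 ± 0.85; adjusted p = 0.0658), Atf3 (2.78 ± 0.93; 0.129) and Hspa1a (1.44 ± 0.87; 0.473) were not called. The classes were rebuilt from clusters made without the 10 genes and named from markers. Pharyngeal endoderm-like cells were also present at E12.5, with 4, 7, 2 and 4 on plates a, c, d and e. Of these E12.5 cells, 8 fell in a cluster of 76 cells, 64 of them from E10.5 plate a. That cluster had a median of 2676.5 molecules and 1481 features per cell. The stage difference of pharyngeal endoderm-like cells was not tested. The lowest of their 3 E12.5 sums was below the highest E10.5 sum for Fos (77.2 against 465.9 CPM). The same held for Jun (174.2 against 255.5) and Ier2 (56.1 against 372.3). For Junb (35.1 against 21.3) and Egr1 (189.4 against 132.7) it was above. The means of these 5 genes were higher at E12.5.

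Within E10.5, none of the 7 genes tested differed between neural-like and pharyngeal endoderm-like cells by edgeR, where 1.04% of 9853 genes were called, 0.781% higher and 0.254% lower. None passed an unadjusted p of 0.05, beside 839 of all genes, and DESeq2 called 0, beside 479. Fos differed by -1.55 ± 0.91 on the log2 scale, Ier2 by 0.46 ± 0.32 and Jun by 0.31 ± 0.47. Atf3 had no read in 83 neural-like cells, which allows a share of up to 3.61% by 3 counts and 4.35% by the exact 95% interval, and was read in 2.56% of 273 endoderm-like cells (exact 95% interval 1.04% to 5.21%).

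Within E12.5, parathyroid-like cells had less Ier2 and Egr1 than thymic epithelial-like cells of the same plates. Ier2 was 526, 382, 406 and 499 CPM in parathyroid-like cells of plates a, c, d and e, and 1384, 1166, 1028 and 1261 CPM in cTEC-like cells. No plate overlapped. Against all thymic epithelial-like cells it differed by -1.60 ± 0.25 on the log2 scale (adjusted p = 0.00607, edgeR). The call was lost without plate a (0.0522), c (0.0612) or d (0.0558). Egr1 was 207, 355, 177 and 240 CPM in parathyroid-like cells and 533, 538, 588 and 433 CPM in cTEC-like cells, again without overlap. It differed by -1.27 ± 0.30 (adjusted p = 0.0332, edgeR), lost with plate as a block (0.0620), without any 1 plate (0.0894 to 0.128) and with no filter on low counts (0.0557). Jun (-1.06 ± 0.32; adjusted p = 0.0848), Fosb (-1.95 ± 1.35; 0.603) and Fos (-0.25 ± 0.30; 0.805) were not called. Counted as molecules, Jun (adjusted p = 0.00924) and Fosb (0.0447) were called lower as well. Of 8 genes tested 2 were lower, where 8.14% of 9722 genes were called, 6.33% lower and 1.81% higher. The median of all genes in this comparison was -0.18, and relative to it Ier2 differed by -1.42 and Egr1 by -1.09. With plate as a block that median was -1.05, and the relative differences were -0.56 and -0.26. With no filter on low counts it was -0.59, and they were -1.06 and -0.73. The parathyroid-like sums held only 6 to 15 cells a plate. Of 6 haematopoietic markers, Ptprc, Tyrobp and Tcrg-C1 were read in these sums and Lyz2, C1qb and Cd3e were at 0. Their summed level was 379.8 CPM on plate a, in 2 of 12 cells, and 0 on plates c, d and e, against at most 0.211 CPM in cTEC-like and 1.16 CPM in mTEC progenitor-like sums. Without those 2 cells the plate a levels were 286 CPM for Ier2 and 107 CPM for Egr1.

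None of the 8 genes tested differed between mTEC progenitor-like and cTEC-like cells by edgeR, where 0.108% of 9239 genes were called, 0.0649% higher and 0.0433% lower. At an unadjusted p of 0.05 there was 1, Fos (0.82 ± 0.36, adjusted p = 0.463 by edgeR), beside 926 of all genes. DESeq2 called 0, beside 660. The mTEC progenitor-like sums held only 5 to 10 cells a plate, so the absence of calls does not show equal levels. Cells with 5 or more immediate early genes made up 63.6% of 264 cTEC-like, 76.7% of 30 mTEC progenitor-like and 26.2% of 42 parathyroid-like cells, pooled over plates that hold unequal numbers of each class. By plate they made up 47.5% to 76.8% of cTEC-like, 60% to 100% of mTEC progenitor-like and 16.7% to 50.0% of parathyroid-like cells. On each of the 4 plates the parathyroid-like share was below the cTEC-like share.

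**Figure D5:**
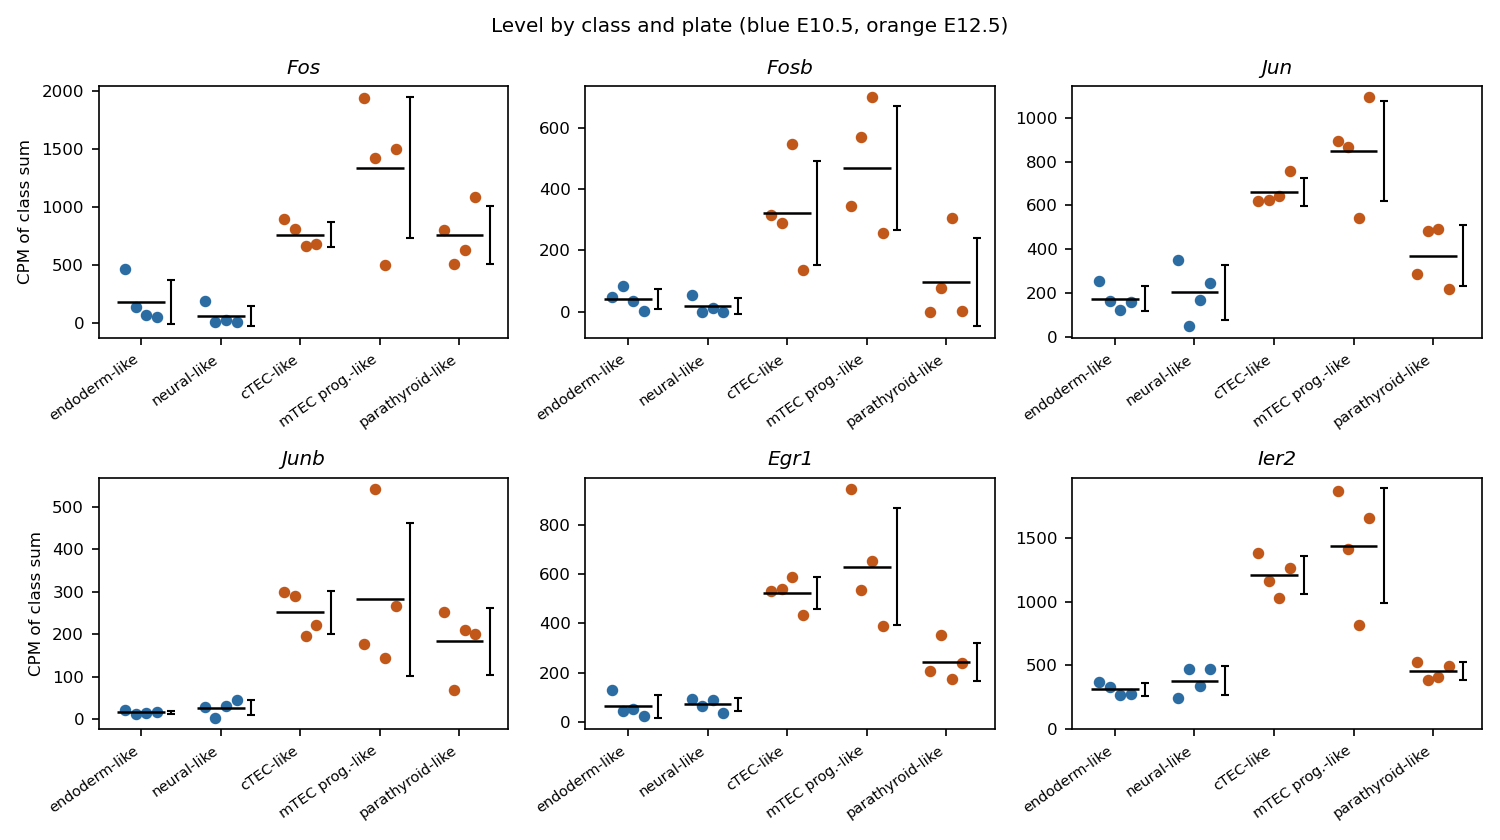
CPM of Fos, Fosb, Jun, Junb, Egr1 and Ier2 in the summed cells of each class and plate (at least 3 cells a sum), E10.5 in blue and E12.5 in orange, with mean and SD over plates. Ier2 in parathyroid-like cells, 382 to 526 CPM, lies below every cTEC-like sum.

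The stage difference was also measured in lists of related genes. A list of other immediate early and early response genes held 45 names, of which 43 were in the count table and 40 were tested. Of the 40, 6 rose and 2 fell, where 3.80% and 2.44% of all genes did. The median log2 fold change of the 40 was 1.03. Those that rose were Nr4a1, an orphan nuclear receptor (3.36 ± 0.70), Zfp36, which destabilises short-lived mRNAs (3.08 ± 0.58), Ier3 (2.40 ± 0.35), Dusp1, a MAP kinase phosphatase (2.34 ± 0.38), Nfkbia (2.24 ± 0.36) and Btg2 (2.09 ± 0.28). Those that fell were Gadd45a (-2.04 ± 0.51) and Id3 (-1.02 ± 0.21). In the epithelial classes 6 rose and 1 fell, beside 3.41% and 2.12% of genes tested. Gadd45a was not called there (-1.13, adjusted p = 0.475, edgeR). DESeq2 called 10 higher and 4 lower over all cells, beside 724 higher and 545 lower of 11499 genes. Of the heat shock and chaperone list, 35 of 36 were tested and 2 rose (5.71%, beside 3.80% of all genes), the small heat shock proteins Hspb8 (4.79 ± 0.83) and Hspb1 (2.72 ± 0.29). DESeq2 called 3 higher, beside 724 of 11499 genes. In the epithelial classes edgeR called 3 higher, beside 3.41% of genes tested, and Dnajb1 was the third (1.09, adjusted p = 0.0298). None fell by edgeR (3 at an unadjusted p of 0.05, and 0 by DESeq2), and the median was -0.07. Of 28 tested kinases, upstream factors and AP-1 partners, edgeR called 0. At an unadjusted p of 0.05 there were 4, beside 2009 of 11499 genes, and DESeq2 called 2, beside 1269. Neither share was above that of all genes.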

How the data were processed

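Wild-type EPCAM+PLET1+ single cells were profiled at E10.5 and E12.5. The deposited values used were read counts per gene. Per the file headers, the authors made them with the BD Precise WTA Analysis Pipeline 2.0 on GRCm38.p6 and GENCODE vM18. Per the study's methods, that pipeline aligns with STAR and counts by HTSeq's union rules. Whether strand was used is not given in the sources used here, and Jun, Junb, Jund, Atf3 and Hspa1a overlap a gene on the other strand. The authors' table adds 2 runs of each plate, checked against the run files, and for the 2 plates with 3 runs it leaves out 1 repeat. All columns were mapped to plates by label (0 not mapped).

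Wells were kept with 40000 to 400000 protein-coding reads, 500 to 5000 features and at most 50% mitochondrial reads, which left 711 of 733. Shares of cells used reads thinned to 40000 per cell, and exact 95% intervals cover counting error only. Reads summed per plate, or per class and plate with at least 3 cells, were tested with edgeR 4.0.16 (TMM, filterByExpr, quasi-likelihood, Benjamini-Hochberg over all genes tested, threshold 0.05). The test was tried on simulated data, whose outcome is not given here, and DESeq2 1.42.0 was an alternative. Clusters came from Seurat 5.3.0 with sctransform 0.4.2, without the 10 genes or the listed genes, and were named from markers. Leaving out cells with a haematopoietic marker read was added after seeing the data. Doublets were not called, since wells were sorted singly.

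The genes and lists were chosen with earlier results of these data known. From each list, up to 4 genes a direction with the largest change among those called were named, and 2 more that rose were added after their values were seen. Classes of one plate share its library, so they pair by plate. The main fits between classes held the group only and did not use this pairing. The fit with plate as a block was an alternative.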

Additional observations from a re-analysis of the deposited data

Results flagged for a closer look

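A value that lay far from the 3 other plates of its stage, by Dixon's test, was found 6 times in 40 groups tested. Chance gives about 1 in 20 for independent continuous values, which these are not: both Jund values rest on 0 to 2 cells a plate, and both Hspa1b values on the same cells. Jund was read in 1.10% of thinned cells on E10.5 plate b and in none on the others, and in 1.18% on E12.5 plate d against 2.20% to 2.25% on the others. Egr1 was read in 31.8% of cells on E10.5 plate c, against 19.3% to 20.7%. Ier2 was read in 36.4% of cells on E10.5 plate a, against 72.9% to 75.8%, although its level in CPM there was within the range of the other plates. Hspa1b stood at 7.16 CPM and in 3.37% of cells on E12.5 plate e, against at most 0.114 CPM and no thinned cell on the others, and 1 cell held 65.8% of those reads.

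E12.5 plate b, which was sequenced in 1 run and was in no comparison, lay above every E10.5 plate for 9 of the 10 genes, including all 8 that were tested between stages, where 30.8% of the genes tested did. Jund rests on 5 reads there, and Hspa1a was close to the highest E10.5 plate (10.4 CPM). Its levels were 825 CPM for Fos, 345 for Fosb, 516 for Jun, 315 for Junb, 0.766 for Jund, 339.9 for Egr1, 999.8 for Ier2, 73.1 for Atf3 and 12.4 for Hspa1a. Hspa1b had no read there, which allows up to 0.460 CPM.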

How the results depend on the processing

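Jun, Junb, Egr1 and Ier2 kept their stage calls over all cells in the 17 alternatives run. Over the tested genes, that comparison gave 136 results, of which 118 kept their direction and call, 6 lost the call, 12 gained it and 0 reversed. In the epithelial classes 113 of 127 were kept, 10 lost the call, 4 gained it and 0 reversed. With E12.5 plate b added, an alternative chosen after seeing the data, Fosb (3.08; adjusted p = 0.0351) and Atf3 (3.47; 0.0210) were called as well. Each lost call in these comparisons was that of Fos. Jund and Hspa1b did not pass the filter on low counts.

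Numbers of genes called by stage over all cells were 718, with DESeq2 1269 and without 1 plate 496 to 815. In the epithelial classes they were 610, 1130 and 425 to 726. For neural-like cells they were 102, 479 and 14 to 93. For parathyroid-like cells they were 791, 1288 and 112 to 137, with 346 without a filter. For mTEC progenitor-like cells they were 10, 660 and 0 to 0, with 1 over all genes and 96 on molecules. In the parathyroid comparison 77.7% of called genes were lower (176 higher and 615 lower), against 63.8% with DESeq2 (466 and 822), 59.8% with no filter, 58.9% with the block, 48.9% on molecules (274 and 262) and 44.3% to 50.9% without 1 plate. The cause of these changes was not tested.

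Plate letters did not pair the stages (same-letter correlations 0.128, 0.0451 and 0.0396). With the letter as a replicate block 215 genes were called over all cells and 156 in the epithelial classes, against 382 and 312 on the same plates without the block (added after seeing the data). Fos then had an adjusted p of 0.0576, against 0.141 on the same plates without the block, Jun 0.0471, Junb 0.00871, Egr1 0.0201 and Ier2 0.0212. With the plate as a block, 66 genes were called for neural-like, 292 for parathyroid-like and 18 for mTEC progenitor-like cells, and of the 10 genes only the Egr1 call in parathyroid-like cells was lost.

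Reversed values, none of them called, were as follows on the log2 scale. In neural-like cells, molecules gave Jun -0.16 and Egr1 -0.33, log-normalised clustering gave Egr1 -0.046 and Hspa1a -0.54, and Hspa1a was -0.82 to 0.49 without 1 plate and -0.88 with the block. In parathyroid-like cells Hspa1a was -2.93 to 1.36 without 1 plate and -1.72 with the block (-0.67 relative to the median of all genes, which the block moved from -0.18 to -1.05). In mTEC progenitor-like cells Junb was -0.19 to 0.40 without 1 plate, and Atf3 was -2.24 to 1.12 without 1 plate and -1.79 with the block (-0.47 relative to a median that moved from -0.23 to -1.32). The cause was not tested.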

Other observations

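The 2 runs of each plate that the table adds were compared for the 48 gene and plate values with at least 100 reads in both. The ratio of the repeat run to the first, in CPM, was 0.504 to 1.75 with a median of 1.14, and 26 lay within 20% of 1. Egr1 was higher in the repeat run on 8 of 8 plates, by 1.33 to 1.75, and Junb on 2 of 6. The third run of E10.5 plate d and of E12.5 plate e was not compared.

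Wells at the edge of a plate and inner wells differed in no common direction in the number of the 8 immediate early genes read. Edge wells had the higher mean on E10.5 plates a (1.77 against 1.33) and b (2.28 against 1.88), and the lower on c (2.0 against 2.39) and d (1.88 against 2.23).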
